A study of Mus musculus with 282 samples.

Results

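Antioxidant enzymes remove superoxide, peroxides and quinones before they damage lipids, proteins and DNA. Described here are 10 of their genes, taken by name from a list: the glutathione peroxidases Gpx1, Gpx2 and Gpx4, the superoxide dismutases Sod1 and Sod2, the peroxiredoxins Prdx1 and Prdx6, the quinone reductase Nqo1, the glutathione synthesis subunit Gclc and the thioredoxin reductase Txnrd1. The list was chosen with earlier results of these data known. All 10 were found among the 48440 gene rows of both count tables, and all 10 passed the filter on low counts.

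The cells were single basal prostate stem cells sorted from inflamed or naive prostates of male POET3 mice, a transgenic line that carries a prostate-directed ovalbumin antigen. The sorted cells were profiled one by one as polyadenylated RNA on a Fluidigm C1 instrument with SMARTer chemistry, in batches labelled 2 and 3. The inflamed group had 85 cells in batch 2 and 78 in batch 3, of which 80 and 76 were kept, and the naive group had 55 and 64, of which 53 and 59 were kept. The study compared the conditions. Its sources as used here state neither how inflammation was induced, nor the age of the mice, nor how many animals stand behind each batch. The p-values set the difference between conditions only against how far that difference varied between the 2 batches. That spread is estimated with information shared over all genes, and it may be technical.

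Superoxide dismutases turn superoxide into hydrogen peroxide, which glutathione peroxidases, peroxiredoxins and catalase then reduce. Glutathione peroxidases draw their electrons from glutathione, which is kept reduced by glutathione reductase, and most peroxiredoxins draw theirs from thioredoxin, which is kept reduced by thioredoxin reductase. Gpx1, Gpx2, Gpx4 and Txnrd1 carry selenocysteine in the active site. Many genes of the system are induced by the transcription factor NRF2, the product of Nfe2l2, which KEAP1 holds back, through antioxidant response elements.

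Gpx2 was higher in inflamed than in naive cells, 49.3-fold in batch 2 and 47.4-fold in batch 3, and Sod1 was lower in both batches. These were the 2 members with an unadjusted p under 0.05, and the other 8 did not pass it. No gene passed after adjustment over all genes in the main test. The stretches before the starts of Gpx2 and Sod1 are shown because only these members had an unadjusted p under 0.05. Any part of the stretches in the differences was not tested. Shown are the 250 bases upstream of the RefSeq start (GRCm38.p6), printed 5′ to 3′ in the direction of transcription. Capitals mark every match to the antioxidant response element core TGACNNNGC, the AP-1 site TGANTCA, the STAT site TTCNNNGAA and the TATA box TATAAA on either strand. Gpx2 lies at chr12:76795555-76795804 on the minus strand and Sod1 at chr16:90220512-90220761 on the plus strand.
Gpx2: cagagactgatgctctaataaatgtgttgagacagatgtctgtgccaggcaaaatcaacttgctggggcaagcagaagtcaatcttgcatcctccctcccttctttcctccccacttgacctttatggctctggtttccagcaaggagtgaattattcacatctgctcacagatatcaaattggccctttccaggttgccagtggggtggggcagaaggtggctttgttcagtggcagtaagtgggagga
Sod1: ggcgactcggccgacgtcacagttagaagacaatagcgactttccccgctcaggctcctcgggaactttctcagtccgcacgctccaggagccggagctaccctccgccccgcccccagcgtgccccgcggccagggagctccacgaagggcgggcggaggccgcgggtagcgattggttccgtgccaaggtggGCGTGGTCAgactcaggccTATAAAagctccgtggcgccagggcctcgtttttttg

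The Gpx2 stretch held none of these motifs and no SP1 box (GGGCGG). The Sod1 stretch held 1 antioxidant response element core on the opposite strand, at -56 from the start, and a TATA box at -37, besides 4 SP1 boxes that overlap in pairs and are left in lower case. Of 32851 mouse promoters in the RefSeq table, each covering 250 bases before to 50 bases after a start, 12.4% held the antioxidant response element core, 7.81% the AP-1 site, 8.30% the STAT site, 35.7% the SP1 box and 13.6% the TATA box. Among the other members, Prdx1 held 1 antioxidant response element core at -133 that overlaps an AP-1 site, and 1 of the 3 annotated starts of Txnrd1 held a core at -92. Of the 10 genes, 8 had an entry in the table, with 13 starts between them.

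Sod1 and Gpx2 each have a processed pseudogene whose reads the tables count in a row of its own. The copy of Sod1 is Gm8566 (chr6:67205619-67206083, plus strand) and that of Gpx2 is Gpx2-ps1 (chr7:100264675-100265245, plus strand). The coding stretches of Gpx2 and Gpx2-ps1 below, from GENCODE M21 transcripts (GRCm38) and starting at coding position 413 of Gpx2, are shown because 50-base reads from the shared parts could belong to either copy. Capitals mark the base at which they differ.
Gpx2: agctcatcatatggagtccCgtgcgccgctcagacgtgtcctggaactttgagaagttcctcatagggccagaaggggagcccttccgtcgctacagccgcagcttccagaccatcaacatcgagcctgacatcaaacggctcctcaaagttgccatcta
Gpx2-ps1: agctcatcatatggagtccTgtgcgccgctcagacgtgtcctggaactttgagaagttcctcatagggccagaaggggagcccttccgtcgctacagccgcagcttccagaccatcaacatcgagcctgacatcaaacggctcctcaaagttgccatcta

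The longest identical run between Gpx2 and Gpx2-ps1 was 140 bases of a coding sequence of 573. Per 100 Sod1 reads, Gm8566 was given 50.9 reads in inflamed batch 2 and 51.96 in inflamed batch 3, against 53.7 in both naive sums. Cell by cell Sod1 and Gm8566 rank alike. On reads scaled to each cell's total, their mean Spearman correlation within the 4 sets of cells was 0.99. The plot shows their unscaled reads. Per 100 Gpx2 reads, Gpx2-ps1 was given 5.02 and 5.88 reads in the inflamed sums and 3.85 and 3.87 in the naive sums. Prdx1 likewise has a copy, Gm21399, given 52.4 and 55.5 reads per 100 Prdx1 reads in the inflamed sums and 54.2 and 54.7 in the naive sums. Nothing in the labels or files says how reads that match several places were counted, so the absolute levels of Sod1, Prdx1 and, to a smaller extent, Gpx2 are uncertain. With the reads of the copies added to their parent genes, a choice made after seeing the data, the log2 fold change was 5.63 ± 0.52 for Gpx2, -1.73 ± 0.35 for Sod1 and -0.21 ± 0.29 for Prdx1 (SE).

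**Figure D1:**
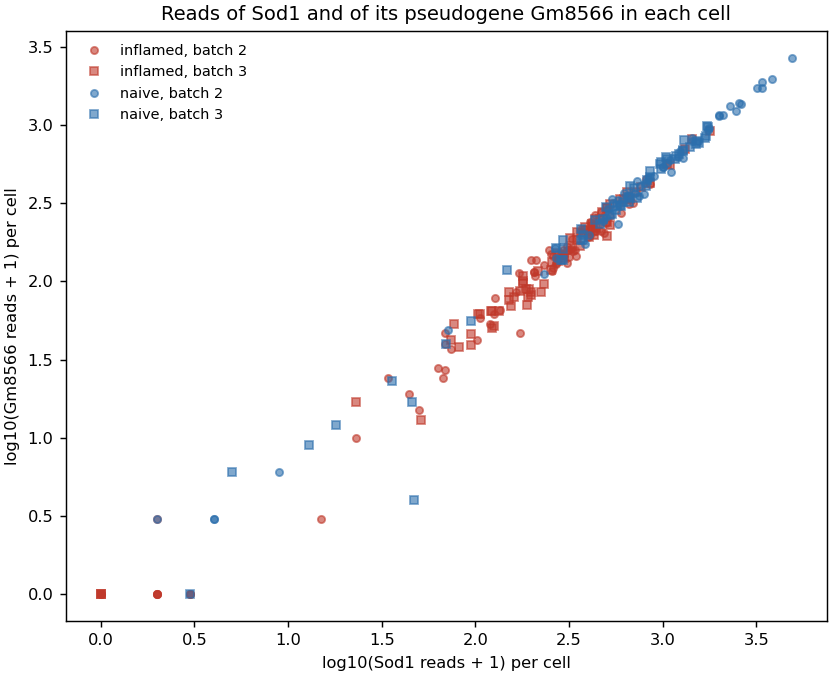
Reads of Sod1 (x axis) and of its pseudogene Gm8566 (y axis) in each of the 268 kept cells, both as log10(reads + 1), with inflamed cells in red and naive cells in blue. The cells of all 4 sets lie on 1 band. On reads scaled to each cell's total, which are not plotted, the mean Spearman correlation within sets was 0.99.

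Cells are not replicates, so reads were added up by condition and batch, which gave 2 inflamed and 2 naive sums. Median depth was 1001870 and 998864 counts per inflamed cell in batches 2 and 3, against 971069 and 840863 counts per naive cell, with medians of 4683 and 4108.5 detected genes against 4739 and 3432. Levels are given as CPM (a gene's reads scaled to a fixed library total), on a library size corrected by the TMM method, and in such sums fewer expressing cells and less RNA per cell cannot be told apart. The sort was checked against markers: all 10 basal markers were detected, with a summed level of 13858 and 13897 CPM in the inflamed sums against 8241 and 10062 CPM in the naive sums. Much of that difference was Krt17, with 6864 and 5813 CPM in the inflamed sums against 1668 and 3704 CPM in the naive sums. The defining basal markers Trp63 (83.01 and 294.0 against 268.9 and 344.5 CPM) and Krt5 (139.3 and 169.9 against 339.0 and 198.6 CPM) were lower in the inflamed sum of each batch, with unadjusted edgeR p of 0.141 and 0.166. Both inflamed sums lay above both naive sums for 5 of the 10 basal markers and below them for 1 (Krt5), against 24.3% and 21.3% of all genes tested. Col17a1 was among the higher ones, with 235.4 and 461.2 against 121.6 and 111.9 CPM (unadjusted edgeR p = 0.0319). Of 10 leukocyte markers, 8 (Ptprc, Laptm5, Srgn, Tyrobp, Lyz2, Cd3e, Coro1a and Csf1r) had 0 reads in every sum, and Cd52 and Itgam together reached at most 0.684 CPM. Endothelial markers summed to 1.70 and 2.24 CPM against 3.65 and 16.6 CPM, and neuroendocrine markers to at most 0.381 CPM in any sum. Among 10 stromal markers, Pdgfrb, Myh11 and Des had 0 reads in every sum. Pdgfra was at 36.2 CPM in naive batch 2 and at most 1.22 CPM elsewhere, and Acta2 at 35.2 CPM in inflamed batch 3 and 31.8 CPM in naive batch 2. The matrix proteoglycan gene Dcn had 3377 and 4397 CPM in the inflamed sums against 3933 and 4369 CPM in the naive sums. Other sets of genes moved with the condition. Summed immediate early and dissociation stress genes were at 5212 and 7927 CPM in the inflamed sums against 25027 and 35864 CPM in the naive sums, with both inflamed sums below both naive sums for 13 of 15 genes, against 21.3% of all genes tested. The 13 luminal markers summed to 3675 and 3117 CPM against 1370 and 2406 CPM. The part of either in the values below was not tested.

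Across all genes, edgeR's quasi-likelihood test with Benjamini-Hochberg adjustment called 0 of 14713 genes (0%), and 0 of the 10 members, at an adjusted p under 0.05. At an unadjusted p under 0.05, 1 member (Gpx2) was higher, against 5.04% of all genes tested, and 1 (Sod1) was lower, against 3.23%. DESeq2, the alternative tool, called the same pair of members at an adjusted p under 0.05, 1 higher against 7.13% of the 13001 genes it tested and 1 lower against 4.11%. Both inflamed sums lay above both naive sums for 3 members (Gpx2, Prdx6 and Nqo1), against 24.3% of all genes, and below them for 2 members (Sod1 and Gpx4), against 21.3%. Both shares over the members are near those over all genes. The median within-batch log2 fold of the members was 0.22 in batch 2 and -0.03 in batch 3, beside 0.05 and 0.06 for all genes tested.

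**Figure D2:**
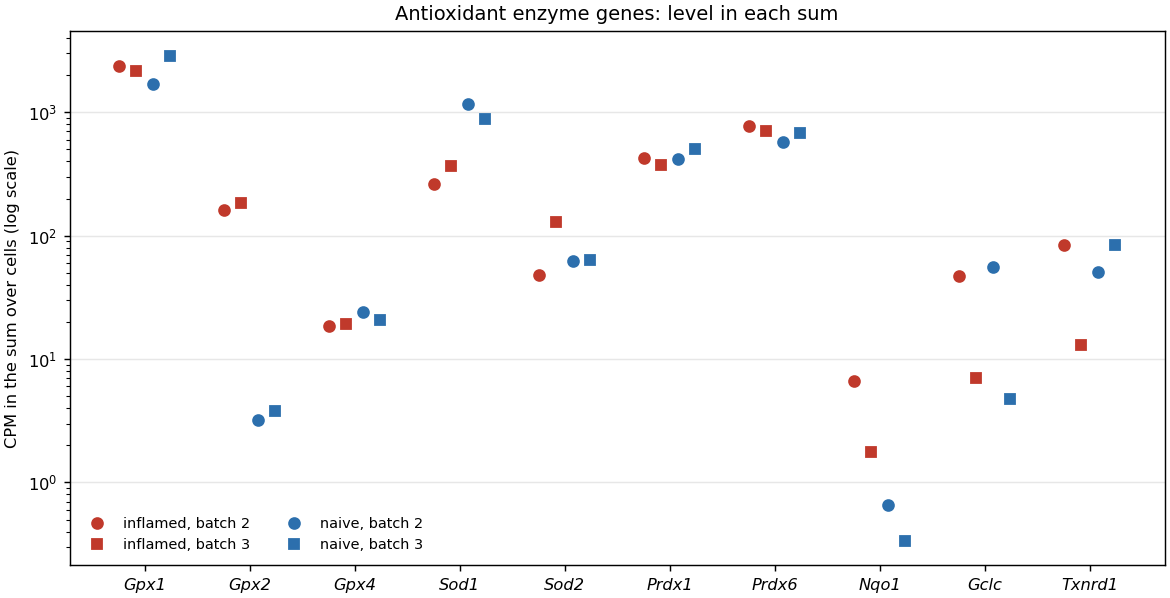
Level of each antioxidant enzyme gene in the sums over cells (CPM, log scale), with inflamed sums in red, naive sums in blue, batch 2 as circles and batch 3 as squares. The inflamed and naive sums of Gpx2 (160.6 and 182.2 against 3.23 and 3.81 CPM) and of Sod1 (262.7 and 366.1 against 1157 and 882.8 CPM) do not overlap, while those of Gpx1 and Prdx1 interleave.

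Among the glutathione peroxidases, Gpx2 is the epithelial form best known from the intestinal lining. Its gene (ENSMUSG00000042808, chr12:76792333-76795554, minus strand) had 160.6 CPM in inflamed batch 2 and 182.2 CPM in inflamed batch 3, against 3.23 CPM in naive batch 2 and 3.81 CPM in naive batch 3. The 2 conditions did not overlap, and the sums of each condition were close to each other. The within-batch folds were 49.3 and 47.4. The fitted log2 fold change was 5.61 ± 0.54 (SE), with an unadjusted p of 0.000753, the 13th smallest of all genes tested, and an edgeR adjusted p of 0.568. Over 12 alternatives the log2 fold change of Gpx2 ranged between 5.42 and 8.46 and its adjusted p between 9.28e-17 (DESeq2) and 0.608.

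The difference in Gpx2 was also seen in how many cells had a read. A Gpx2 read was found in 53 of 80 inflamed cells of batch 2 (66.25%, exact Clopper-Pearson 95% interval 54.8 to 76.4) and in 46 of 76 inflamed cells of batch 3 (60.5%, 48.6 to 71.6). Among naive cells it was found in 6 of 53 in batch 2 (11.3%, 4.27 to 23.03) and in 4 of 59 in batch 3 (6.78%, 1.88 to 16.5). These intervals cover counting error only. With every cell thinned to 500000 counts the shares were 65.7% and 56.9% of inflamed cells, against 8.70% and 7.27% of naive cells. At least 5 Gpx2 reads were found in 39 and 40 inflamed cells, against 3 and 1 naive cells.

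Inflamed cells were uneven in Gpx2. The cell median was 2.78 CPM in inflamed batch 2 and 10.9 CPM in inflamed batch 3, while the upper quartile was 122.7 and 183.1 CPM and the highest cell 1393 and 3604 CPM. Both naive medians were 0, and the highest naive cells had 103.04 and 181.4 CPM. The highest cell held 12.3% and 14.3% of the Gpx2 reads of the inflamed sums, but 47.8% and 98.3% of those of the naive sums. Without each gene's highest cell in every sum, the log2 fold change of Gpx2 was 8.46 ± 1.69 (SE), so the naive level rests on few cells. In batch 2, 22 inflamed cells lay above the highest naive cell, and in batch 3 it was 19.

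**Figure D3:**
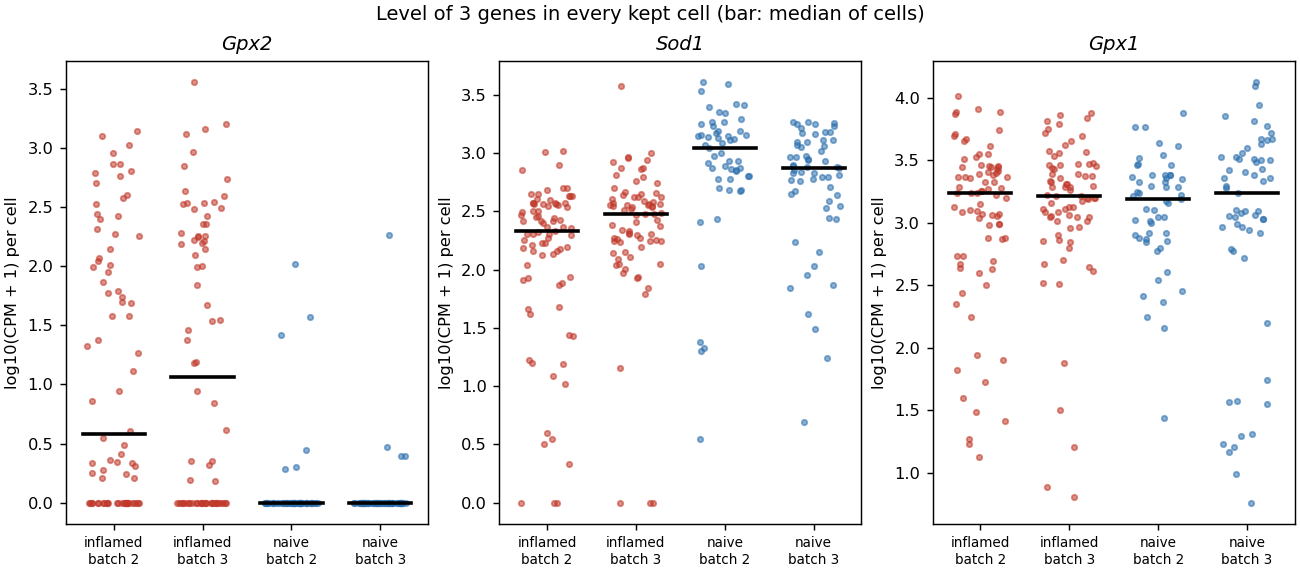
Level of Gpx2, Sod1 and Gpx1 in each of the 268 kept cells, as log10(CPM + 1), where CPM is per cell, with the median of each set of cells as a black bar. Gpx2 medians are 0 in both naive sets, Sod1 medians are 212.1 and 298.8 CPM in inflamed cells against 1116 and 745.9 CPM in naive cells, and Gpx1 medians are close in all 4 sets.

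Gpx1 encodes the widespread cytosolic and mitochondrial glutathione peroxidase (ENSMUSG00000063856, chr9:108338903-108340343, plus strand). It had 2365 and 2149 CPM in the inflamed sums, against 1702 and 2884 CPM in the naive sums. The naive sums lay on either side of both inflamed sums, and the log2 fold within batches was 0.47 and -0.42. The fitted log2 fold change of Gpx1 was 0.03 ± 0.33 (SE, unadjusted p = 0.943). Every kept cell had a Gpx1 read, and the cell medians were 1715 and 1643 CPM in inflamed cells against 1560 and 1734 CPM in naive cells. Gpx1 took 56.4% and 54.5% of all reads of the 10 genes in the inflamed sums, against 41.97% and 56.2% in the naive sums.

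Gpx4 reduces lipid hydroperoxides within membranes and is the main brake on ferroptosis (ENSMUSG00000075706, chr10:80047166-80056439, plus strand). Its levels were 18.5 and 19.3 CPM in the inflamed sums, against 24.05 and 20.8 CPM in the naive sums. The 2 conditions did not overlap, but by a small distance: the log2 fold change was -0.24 ± 0.95 (SE, unadjusted p = 0.812). A Gpx4 read was found in 81.25% and 71.1% of inflamed cells, against 77.4% and 55.9% of naive cells, so by this measure the inflamed cells were not below the naive cells of their batch. Of the 1805 stretches of 50 bases in Gpx4 transcripts, 34.7% are shared with other transcripts, among them those of the pseudogene Gpx4-ps2. That pseudogene is not among the gene rows counted, so no reads of it could be added to Gpx4, whose level is uncertain.

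Sod1 encodes the copper and zinc superoxide dismutase of the cytosol (ENSMUSG00000022982, chr16:90220754-90226329, plus strand). It had 20705 and 27839 reads in inflamed batches 2 and 3, against 65300 and 41912 reads in naive batches 2 and 3. As CPM these were 262.7 and 366.1 in the inflamed sums, against 1157 and 882.8 in the naive sums. Both inflamed sums lay well below both naive sums, and the distance was wider in batch 2. Inflamed cells had a 4.41-fold lower level in batch 2 and a 2.41-fold lower one in batch 3. The fitted log2 fold change of Sod1 was -1.70 ± 0.36 (SE), with an unadjusted p of 0.0114 and an edgeR adjusted p of 0.568. Over 12 alternatives its log2 fold change ranged between -1.75 and -1.66 and its adjusted p between 0.00813 (DESeq2) and 0.658.

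Unlike that of Gpx2, the difference in Sod1 lay in the level per cell and not in the share of cells with a read. A Sod1 read was found in 77 of 80 and 73 of 76 inflamed cells, against all 53 and all 59 naive cells. The cell median was 212.1 and 298.8 CPM in inflamed cells, against 1116 and 745.9 CPM in naive cells, and the quartiles were 82.997 to 362.4 and 172.8 to 418.3 CPM against 632.6 to 1562 and 408.5 to 1212 CPM. The middle ranges of the 2 conditions overlap only in batch 3. All 80 inflamed cells of batch 2 and 92.1% of those of batch 3 were below the naive median of their batch. No single cell held more than 7.5% of the Sod1 reads of a sum.

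**Figure D4:**
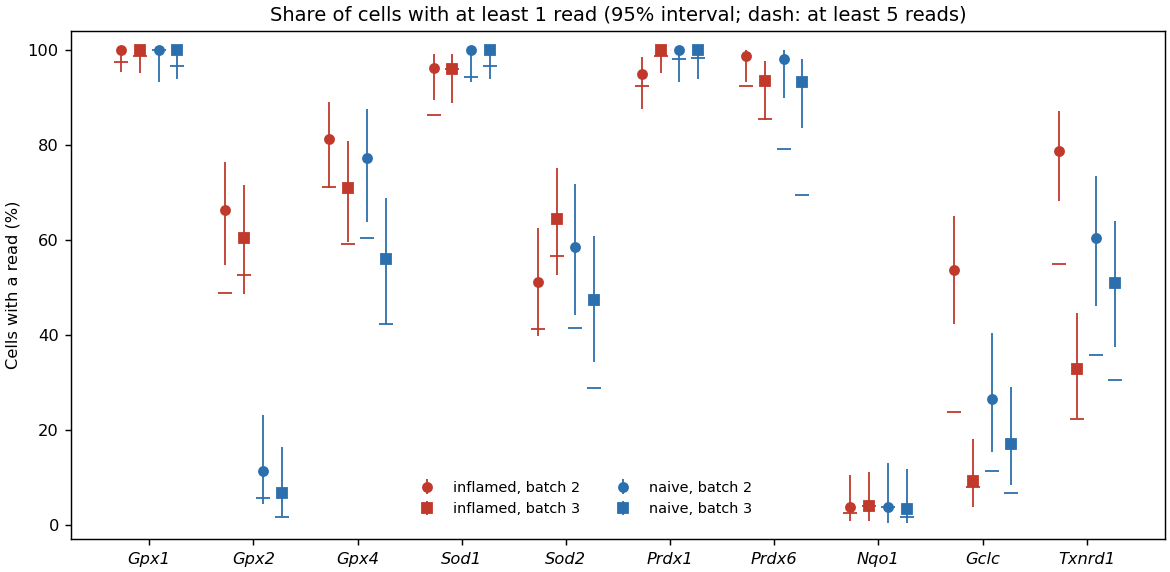
Share of cells with at least 1 read of each gene (points, with exact 95% Clopper-Pearson intervals) and with at least 5 reads (dashes), for inflamed cells in red and naive cells in blue. Gpx2 reads were found in 66.25% and 60.5% of inflamed cells against 11.3% and 6.78% of naive cells, whereas Sod1, Gpx1, Prdx1 and Prdx6 reads were found in at least 93.2% of cells of every set.

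Sod2 encodes the manganese superoxide dismutase of mitochondria, known as a target of NF-kB in inflammation (ENSMUSG00000006818, chr17:13006846-13040063, plus strand). It had 48.1 and 128.4 CPM in the inflamed sums, against 62.4 and 62.98 CPM in the naive sums. The inflamed sums lay on either side of the naive ones, the high value being that of batch 3, and the log2 fold within batches was -0.38 and 1.03. The fitted log2 fold change was 0.33 ± 0.62 (SE, unadjusted p = 0.628). A Sod2 read was found in 51.25% and 64.5% of inflamed cells, against 58.5% and 47.5% of naive cells.

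The peroxiredoxins were abundant and close between conditions. Prdx1, a cytosolic enzyme that uses thioredoxin (ENSMUSG00000028691, chr4:116685544-116700822, plus strand), had 427.1 and 373.0 CPM in the inflamed sums, against 420.8 and 506.8 CPM in the naive sums. Its log2 fold change was -0.21 ± 0.31 (SE, unadjusted p = 0.535), with 0.02 in batch 2 and -0.44 in batch 3. Prdx6, which uses glutathione and also has phospholipase activity (ENSMUSG00000026701, chr1:161240112-161251219, minus strand), had 773.8 and 703.8 CPM in the inflamed sums, against 578.6 and 680.1 CPM in the naive sums. Its sums did not overlap, by a narrow margin in batch 3, and the log2 fold change was 0.23 ± 0.28 (SE, unadjusted p = 0.457). The cell median of Prdx6 was 617.2 and 537.5 CPM in inflamed cells, against 301.1 and 270.6 CPM in naive cells, a wider distance than that of the sums. At least 5 Prdx6 reads were found in 92.5% and 85.5% of inflamed cells, against 79.2% and 69.5% of naive cells.

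The remaining 3 genes rested on few cells or varied strongly between batches. Nqo1, a quinone reductase and standard NRF2 target (ENSMUSG00000003849, chr8:107388225-107403206, minus strand), had 6.66 and 1.76 CPM in the inflamed sums, against 0.656 and 0.337 CPM in the naive sums. The sums did not overlap, yet only 3 and 3 inflamed cells and 2 and 2 naive cells had a read, and the highest cell held 95.8% and 85.1% of the inflamed reads and 70.3% and 93.8% of the naive reads. The log2 fold change of Nqo1 was 2.86 ± 1.86 (SE, unadjusted p = 0.205), and 1.88 ± 2.23 without the highest cell of each sum.

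Gclc encodes the catalytic subunit of glutamate-cysteine ligase, which catalyses the first and limiting step of glutathione synthesis (ENSMUSG00000032350, chr9:77754535-77794485, plus strand). It had 47.2 and 6.997 CPM in the inflamed sums, against 55.4 and 4.78 CPM in the naive sums. The batches differed far more than the conditions did, with batch 2 high in both. The log2 fold change was 0.16 ± 0.83 (SE, unadjusted p = 0.859). A Gclc read was found in 53.75% and 9.21% of inflamed cells, against 26.4% and 16.9% of naive cells. In each batch this order of the conditions was opposite to that of the levels. At least 5 Gclc reads were found in 23.75% and 7.89% of inflamed cells, against 11.3% and 6.78% of naive cells. In batch 3, 1 cell held 67.7% of the inflamed reads and 1 cell held 69.2% of the naive reads.

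Txnrd1 encodes the cytosolic thioredoxin reductase (ENSMUSG00000020250, chr10:82833951-82897712, plus strand). It had 83.6 and 12.9 CPM in the inflamed sums, against 50.7 and 83.2 CPM in the naive sums. The inflamed sum of batch 3 was the low one, and the log2 fold was 0.72 in batch 2 and -2.68 in batch 3. The fitted log2 fold change was -0.98 ± 1.21 (SE, unadjusted p = 0.467). A Txnrd1 read was found in 78.75% and 32.9% of inflamed cells, against 60.4% and 50.8% of naive cells.

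Across the set, 5 of the 10 genes had the same sign of the within-batch fold in both batches (Gpx2, Sod1, Gpx4, Prdx6 and Nqo1) and 5 had opposite signs (Gpx1, Sod2, Prdx1, Gclc and Txnrd1). Per kilobase of exon, the level was highest for Gpx1, with 1641 and 1492 CPM per kb in the inflamed sums against 1181 and 2001 CPM per kb in the naive sums. The length used joins all annotated exons of a gene and can exceed its mRNA, so the order of genes by this measure is uncertain. Sod1 had 66.2 and 92.2 CPM per kb in the inflamed sums, against 291.5 and 222.4 CPM per kb in the naive sums. Prdx1 had 140.4 and 122.6 CPM per kb in the inflamed sums, against 138.3 and 166.5 in the naive sums. Prdx6 had 161.1 and 146.5 CPM per kb in the inflamed sums, against 120.5 and 141.6 in the naive sums. Gpx2 had 49.8 and 56.5 CPM per kb in the inflamed sums, against 1.00 and 1.18 CPM per kb in the naive sums. The summed level of the 10 genes was 4193 and 3944 CPM in the inflamed sums, against 4055 and 5130 CPM in the naive sums. A cell had reads of a median of 7 of the 10 genes in both sets of batch 2 and of 6 in both sets of batch 3.

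**Figure D5:**
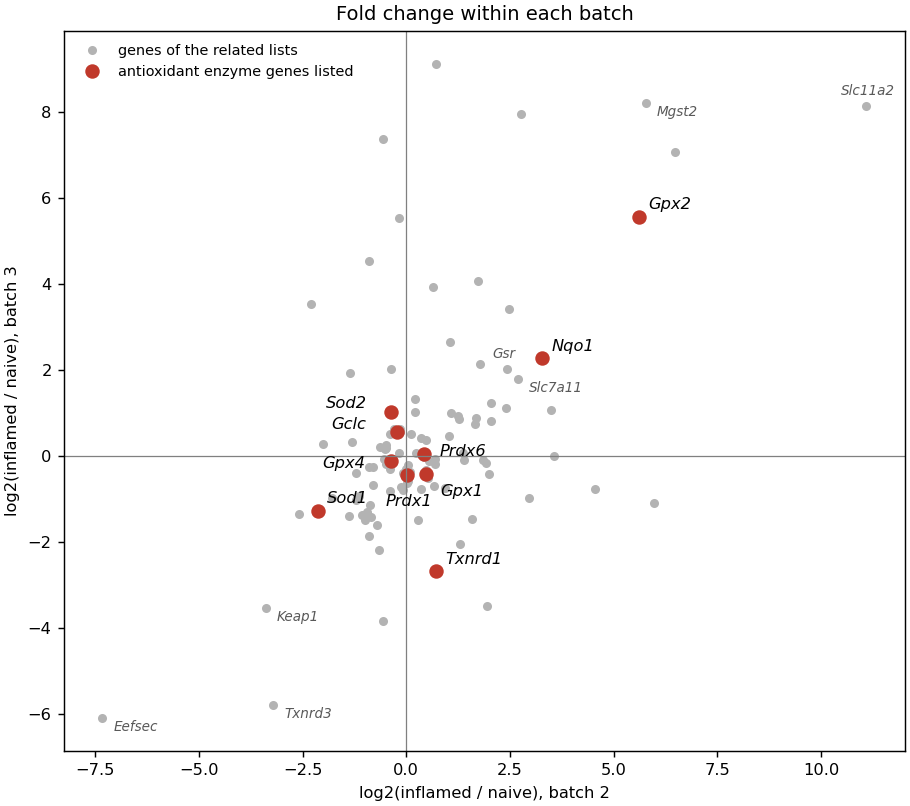
Log2 fold change, inflamed over naive, within batch 2 (x axis) and batch 3 (y axis), from log CPM (prior count 2), for the 10 antioxidant enzyme genes (red) and for the tested genes of the related lists (grey). Gpx2 (5.62 and 5.57) and Nqo1 (3.28 and 2.29) lie in the upper right and Sod1 (-2.14 and -1.27) in the lower left, while Txnrd1 (0.72 and -2.68) lies on opposite sides of 0.

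Within sets of cells the members were only weakly correlated with each other. Of 45 pairs, 0 had a mean Spearman correlation over the 4 sets above 0.3, and the median pair had 0.07. The correlation of Gpx2 with Sod1 was 0.26 and 0.18 in inflamed cells, against 0.00 and -0.10 in naive cells. Gpx2 with Prdx1 had 0.37 and 0.34 in inflamed cells, against 0.05 and 0.07 in naive cells, where few cells had a Gpx2 read. These are descriptions over cells that share libraries and depth, and correlations this weak in sparse counts are no finding. Among 6981 genes with a read in at least 20% of cells, the genes ranked most like Gpx2 by mean within-set Spearman correlation were its pseudogene Gpx2-ps1 (0.72), Dram2 (0.28), Nfu1 (0.28), Gm10131 (0.27) and Frmd6 (0.25). For Sod1 they were its pseudogene Gm8566 (0.99), Rps2 (0.31), Tomm7 (0.27), Gm11474 (0.27) and Gm6767 (0.27). Apart from the pseudogenes these values are low, and with cells thinned to equal counts Gm6767 ranked 534.

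Around the 10 enzymes, 8 related lists of redox genes were examined, and 88.6% of their genes were tested. These lists too were chosen with earlier results of these data known, so their shares are not independent of that choice. Both inflamed sums lay above both naive sums for 24 of those tested (23.8%) and below for 21 (20.8%). An unadjusted p under 0.05 was found for 8 in the higher direction (7.92%, against 5.04% of all genes tested) and for 5 in the lower one (4.95%, against 3.23%). None had an edgeR adjusted p under 0.05 (0 genes), and DESeq2 called 9 higher and 3 lower, where it called 7.13% and 4.11% of all genes it tested. For each list below, the counts at an unadjusted p under 0.05 stand beside the same 5.04% and 3.23%. The shares without overlap were near those of all genes tested (24.3% and 21.3%). The median within-batch log2 fold was 0.10 and -0.07 (0.10 and -0.10 with sums of 0 set to 3 counts), close to that of all genes tested.

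The glutathione list (synthesis, recycling and use) had 22 genes tested, of which 4 were higher (18.2%, against 5.04% of all genes) and 1 was lower (4.55%, against 3.23%) with p under 0.05 before adjustment. Its median within-batch log2 fold was 0.98 and 0.25. Gsr, the glutathione reductase that returns oxidised glutathione to its reduced form, had 166.2 and 186.3 CPM in the inflamed sums, against 30.9 and 45.9 CPM in the naive sums. The conditions did not overlap, and a Gsr read was found in 80% and 90.8% of inflamed cells, against 49.1% and 44.1% of naive cells. Its log2 fold change was 2.22 ± 0.44 (SE, unadjusted p = 0.00893), with an edgeR adjusted p of 0.568 and a range of the adjusted p over 12 alternatives between 0.00359 (DESeq2) and 0.658. Slc7a11, the cystine importer that feeds glutathione synthesis, had 167.1 and 45.8 CPM in the inflamed sums, against 25.8 and 13.2 CPM in the naive sums (unadjusted p = 0.0237). A Slc7a11 read was found in 61.25% and 28.9% of inflamed cells, against 30.2% and 27.1% of naive cells. The highest cell held 14.6% and 35.1% of its inflamed reads, and 52.9% and 39.2% of its naive reads. Ggct, an enzyme of glutathione breakdown, had 105.4 and 90.02 CPM against 31.8 and 5.31 CPM (unadjusted p = 0.0393). The highest cell held 27.9% and 17.4% of its inflamed reads, and 60.3% and 82.1% of its naive reads. Mgst2, a microsomal glutathione transferase, had 1.67 and 21.7 CPM in the inflamed sums, against 0 and 0.0421 CPM in the naive sums (unadjusted p = 0.0215). Its reads came from 6.25% and 11.8% of inflamed cells, and 1 cell held 37.1% and 71.6% of the inflamed reads. Mgst3, its relative, had 86.3 and 77.3 CPM in the inflamed sums, against 167.3 and 190.9 CPM in the naive sums (unadjusted p = 0.0497).

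In the thioredoxin list, 0 of 7 genes tested were higher and 2 were lower (28.6%, against 3.23% of all genes) with p under 0.05 before adjustment. Txnip, the thioredoxin inhibitor, had 102.8 and 154.7 CPM in the inflamed sums, against 237.4 and 312.4 CPM in the naive sums (log2 fold change -1.11 ± 0.34 SE, unadjusted p = 0.0350). Txnrd3, a testis-enriched relative of Txnrd1, had 6.50 and 0.447 CPM in the inflamed sums, against 60.04 and 26.7 CPM in the naive sums (unadjusted p = 0.0334), and 1 cell held 99.1% and 96.1% of its reads in each naive sum. Without the highest cell of each sum its log2 fold change was -0.38 ± 2.42 (SE, unadjusted p = 0.883). Among 13 other peroxide and superoxide enzymes tested, 0 were higher and 1 was lower. This was Prdx4, the peroxiredoxin of the endoplasmic reticulum, with 48.5 and 67.7 CPM in the inflamed sums, against 167.9 and 133.5 CPM in the naive sums (log2 fold change -1.39 ± 0.47 SE, unadjusted p = 0.0477). Catalase (Cat) had 12.1 and 57.6 CPM in the inflamed sums, against 49.1 and 47.6 CPM in the naive sums, with the inflamed sums on either side of the naive ones.

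Of the 10 genes tested in the list of NRF2 and its regulators, 1 was higher (10%, against 5.04% of all genes) and 0 were lower (against 3.23%) with p under 0.05 before adjustment. Nfe2l2 itself was read in every kept cell and had 814.4 and 709.9 CPM in the inflamed sums, against 1065 and 1252 CPM in the naive sums (log2 fold change -0.60 ± 0.28 SE, unadjusted p = 0.103). Keap1, its inhibitor, had 0.304 and 1.76 CPM in the inflamed sums, against 3.47 and 20.9 CPM in the naive sums (unadjusted p = 0.104), and 1 cell held 63.3% and 73.8% of its naive reads. Mafg, which encodes a small MAF partner of NRF2, was the higher one, with 130.6 and 93.6 CPM against 31.7 and 39.7 CPM (unadjusted p = 0.0437), and 1 cell held 74.5% and 90.6% of its naive reads. Among 16 other NRF2 target genes, 1 was higher (6.25%) and 0 were lower. It was Aldh3a1, an aldehyde dehydrogenase, with 131.2 and 150.8 CPM in the inflamed sums, against 63.3 and 23.99 CPM in the naive sums (unadjusted p = 0.0486). For Aldh3a1, 1 cell held 25.1% and 63.1% of the naive reads.

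In the selenoprotein list, 0 of 16 genes were higher and 1 was lower (6.25%, against 3.23% of all genes) by the same measure. Eefsec, the elongation factor that delivers selenocysteine, had 0.101 and 0.723 CPM in the inflamed sums, against 21.2 and 51.6 CPM in the naive sums (unadjusted p = 0.0101), and 1 cell held 81.5% and 76.4% of the naive reads. Among enzymes that make reactive oxygen or nitric oxide, 7 of 18 genes were tested and 1 was higher (14.3%, against 5.04% of all genes). Xdh, xanthine dehydrogenase, had 60.9 and 69.4 CPM in the inflamed sums, against 10.99 and 6.47 CPM in the naive sums (log2 fold change 2.95 ± 0.80 SE, unadjusted p = 0.0251), and 1 cell held 77.6% and 58.96% of its naive reads. In the ferroptosis and iron list, 1 of 10 genes tested was higher (10%) and 0 were lower. It was Slc11a2, an iron transporter of the endosome and plasma membrane, with 5336 and 2474 reads in the inflamed sums, against 0 and 4 reads in the naive sums (unadjusted p = 0.0131), from 25% and 21.1% of inflamed cells. For Slc11a2, 1 cell held 28.5% and 44.8% of the inflamed reads.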

How the data were processed

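The authors deposited raw counts of reads per gene, in 1 table per batch with 48440 gene rows and a column for each of 282 cells. Reads were single-end and 50 bases long, without molecular identifiers, per the labels' protocols. TopHat2, HTSeq, R 3.4.1, Seurat 1.4 and GRCm38.p6 are named, with no roles or order, in the submitters' processing notes. No label gives the strand of the counting; where members overlap another gene, 0 exon bases are shared. Symbols and coordinates came from GENCODE M21 (48058 identifiers matched) and promoters from RefSeq.

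Cells with at least 1000 detected genes and 50000 counts were kept (14 left out), with 52475 to 2219764 counts per kept cell, and no doublet caller was run. Counts were summed per condition and batch. The 4 sums were tested with edgeR 4.0.16 in R 4.3.3 (quasi-likelihood, TMM, filterByExpr, condition and batch as terms, 1 residual degree of freedom), with p adjusted by the Benjamini-Hochberg method over all 14713 genes tested. DESeq2 1.42.0 and limma 3.58.1 were alternatives. Within-batch folds used a prior count of 2. SEs were derived from the fold change and its F value. The batch, given by the labels, pairs the sums; the batch deviations of inflamed and naive sums had a correlation of -0.01 across genes. Copies were found as transcripts sharing at least 20 stretches of 50 bases. The coding sequence of Sod1 is not reported here. The scripts were tested on simulated counts.

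The members and the related lists were chosen with earlier results of these data known. Genes named besides the members were Gsr, Cat, Nfe2l2, Keap1 and Txnip, up to 5 genes per list with the smallest unadjusted p under 0.05, and the 5 genes most correlated with Gpx2 and with Sod1.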

Additional observations from a re-analysis of the deposited data

How the results depend on the processing

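With DESeq2 in place of edgeR, 1461 genes in all and 2 of the 10 members passed the adjusted threshold, while 1743 genes in the higher direction and 1136 in the lower one had an unadjusted p under 0.05. Under the other alternatives the adjusted counts were 0, for all genes and for the members. Without the batch as a replicate block, 1155 genes had such a p in the higher direction and 681 in the lower one (742 and 475 with the block), and without each gene's highest cell 1061 and 300 did. Gpx2 and Sod1 kept an unadjusted p under 0.05 in all 12 alternatives with a test, the highest being 0.00608 for Gpx2 and 0.0144 for Sod1. Gpx1 turned to -0.023 with no replicate block and to -0.0040 with equal weight per cell, and Gclc to -0.15 with no replicate block; the cause was not tested. Of 306 fold values of single genes compared, 3 turned in sign and 11 passed the adjusted threshold, all with DESeq2. With a lowest adjusted p of 0.568 over all genes, the edgeR fits in which no gene passes say nothing about stability at that threshold. Among the related genes, Txnrd3 lost its unadjusted p under 0.05 without the highest cell (0.883), and Prdx4, Mgst3, Aldh3a1, Mafg and Ggct each lost it in at least 1 alternative. Each condition has 2 sums, one per batch, with no animals named, and the sums of Nqo1 and of naive Gpx2 rest on few cells.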
